A study of Arabidopsis thaliana with 4 samples.

Results

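The genes described here are 245 abundant nuclear genes of Arabidopsis thaliana whose normalized counts were nearly the same in leaf protoplasts and in the leaf. They were chosen by a rule on these counts. Each library was divided by a median-of-ratios size factor, which sets the middle of the gene-wise ratios between libraries to a common level (0.847 and 0.687 for the protoplast libraries, 1.297 and 1.340 for the leaf libraries). Nuclear loci were then kept if their mean scaled count over the 4 libraries was at least 3000 and if the log2 ratio of the protoplast mean over the leaf mean lay within 0.15 of 0, that is, within 1.11-fold. The counts cover 24904 loci. Of these, 24651 are nuclear, 2360 of the nuclear loci reached the floor of 3000, and 245 of the 2360, or 10.4%, were level. The ratio chose these genes, so their levelness is a description and supports nothing. All 245 matched the gene table of the NCBI assembly TAIR10.1, where 155 carry a symbol; the other 90 are given by locus.

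The libraries were made from poly(A) RNA of wild-type Col-0 plants that had grown for 6 weeks with 8 h of light and 16 h of dark a day. Protoplasts, which are leaf cells freed of their walls, had 2 libraries. They came from mature leaves peeled of the lower epidermis with tape, incised beside the midvein and shaken for 2 h in cellulase, macerozyme and mannitol, then filtered and washed. Whole leaf that had not been protoplasted also had 2 libraries. The labels attach the same peeling text to the leaf libraries, and they do not say whether that leaf was peeled. The enzymes, mannitol, shaking, filtering, washing, the time they take and the mix of cells released are therefore compared all at once. The peeling and the incision enter as well if that leaf had neither. The 2 libraries of a group are called biological replicates, but separate plants or days are not named, so the p-values reflect the spread among these libraries and part of it may be technical. For a single gene, 2 against 2 libraries allow no exact permutation p below 0.333.

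Removing a plant cell wall with enzymes wounds the tissue, changes its osmotic surroundings and releases mainly mesophyll, while cells held in the epidermis and the veins are released poorly. Genes with steady transcript levels matter in such work because expression is often scaled to them: tubulins, actins, ubiquitin-conjugating enzymes, elongation factors and glyceraldehyde-3-phosphate dehydrogenases have long served plant biologists in this way. A level count of a bulk sample says nothing about single cells, since fewer cells of a type and less RNA per cell cannot be told apart.

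Total counts ran from 39958035 to 48503141 a library. Of the markers of other leaf cells, 5 of 5 tested epidermis genes, 5 of 5 guard cell genes, 7 of 7 phloem genes and 5 of 5 xylem genes fell in protoplasts, and 6 of 6 mesophyll genes rose (edgeR quasi-likelihood test, Benjamini-Hochberg adjusted p under 0.05). Over all tested loci 39.8% rose and 40.7% fell. All 6 mesophyll genes reached the count floor set for the level genes. Among the nuclear loci that reached it, 70.4% were called higher and 20.8% lower in protoplasts. The 6 genes had a median log2 fold change of 0.52, and the median log2 ratio of those abundant loci was 0.62. With library size as the only scaling, 5 of the 6 mesophyll genes were lower in protoplasts. The summed scaled counts of these lists were 210 to 236 in protoplasts and 26476 to 27210 in leaf for epidermis, 105 to 107 in protoplasts and 1813 to 1877 in leaf for guard cells, and 1069 to 1155 in protoplasts and 35458 to 37253 in leaf for phloem. They were 81 to 93 in protoplasts and 1275 to 1427 in leaf for xylem, and 2178333 to 2209423 in protoplasts and 1452366 to 1467226 in leaf for mesophyll. The epidermis markers CER4 and PDF1 and the guard cell marker ALMT12 had 0 protoplast counts. How far these marker changes enter the values of the level genes was not tested.

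Level genes were a minority of the abundant loci. Of the 2360, 814 (34.5%) were at least 2-fold higher in protoplasts, 842 (35.7%) were higher by less, 344 (14.6%) were lower by less than 2-fold and 115 (4.87%) were at least 2-fold lower. The median log2 ratio of all abundant loci was 0.62. The share of nuclear loci within 0.15 of 0 was 10.8% at mean scaled counts of 100 to 300 and 17.0% at 1000 to 3000. It was 12.6% at 3000 to 5000, 7.01% at 10000 to 30000, and 2.72% (5 of 184) from 30000 up. Counts grow with transcript length as well as with abundance, so these classes order loci by counts and not by molecules.

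**Figure D1:**
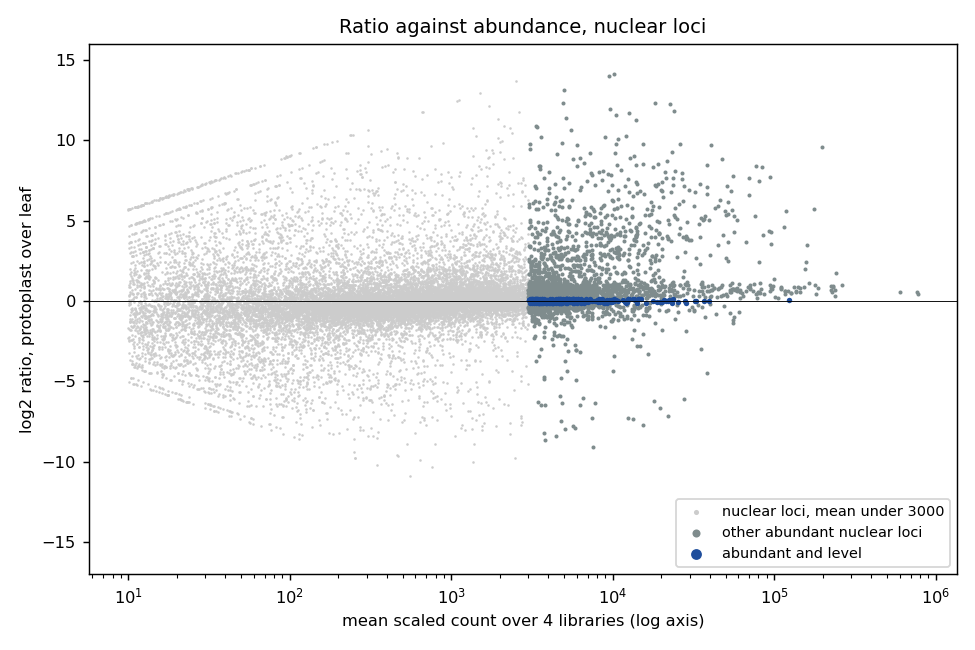
Log2 ratio of mean scaled counts, protoplast over leaf, against the mean scaled count over 4 libraries (log axis) for nuclear loci with a mean of at least 10 and counts in both groups; each point is a locus. The 245 level genes form a thin band at 0 to the right of 3000, and most other abundant loci lie above it, with a median of 0.62 over all 2360.

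The level genes took 3.25% and 3.18% of the counts of the protoplast libraries and 5.63% and 5.67% of those of the leaf libraries. Their share of the raw counts was thus lower in protoplasts while their scaled counts were level. The abundant loci as a whole took 76.0% and 74.9% in protoplasts and 65.8% and 66.2% in leaf. With library size as the only scaling the ratios of the 245 genes lay between -0.98 and -0.68, with a median of -0.81, where the median log2 fold change of all tested loci was -0.85. MIPS1 shows the difference: it had 641 and 622 CPM (counts scaled by library size) in the protoplast libraries and 1135 and 1138 CPM in the leaf libraries, a log2 ratio of -0.85, against -0.02 after median-of-ratios scaling. Level therefore means at the same level relative to the middle of the loci, and not an equal share of the RNA.

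Within the band the libraries still differed a little. Among the 245 genes 147 had a ratio above 0 and 98 below, with a median of 0.02. The single protoplast-to-leaf library pairs ranged from -0.29 to 0.33, and 148 genes (60.4%) had all 4 pairs within 0.15 of 0. For 149 of the 245 (60.8%) the protoplast and leaf libraries did not overlap, against 90.2% of all tested loci and 95.8% of the 2360 abundant ones. In the edgeR test 42 of the 245 (17.1%) passed an adjusted p of 0.05, 10 higher and 32 lower in protoplasts, against 80.5% of all 20200 loci tested (39.8% higher and 40.7% lower). Among the 2360 abundant loci, the level genes included, 91.2% were called, 70.4% higher and 20.8% lower. The balance of higher and lower calls turned with RLE factors, to 43 higher and 9 lower, and with DESeq2, to 6 higher and 2 lower. Without protoplast replicate 1 the level genes called were 4 higher and 32 lower, without protoplast replicate 2 they were 5 and 22, without leaf replicate 1 they were 5 and 24, and without leaf replicate 2 they were 1 and 16. With upper-quartile factors or library size alone 0 were called higher and 245 lower. These counts are set by the rule and the scaling together, and nothing is read from them. The log2 fold changes lay between -0.17 and 0.13 with a median SE of 0.051. Of the 245 genes, 7 had an adjusted p under 0.05 in the authors' deposited table, against 62.0% of the loci with an adjusted p there.

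The spread between replicates was not used by the rule. The absolute log2 difference between the replicates had a median of 0.0506 in protoplasts and 0.0519 in leaf over the 245 genes, and of 0.0566 in protoplasts and 0.0507 in leaf over the other 2115 abundant loci. Replicates differed by more than 0.15 for 22 of the 245 genes (8.98%) in protoplasts and for 11 (4.49%) in leaf, against 10.6% in protoplasts and 9.83% in leaf over the other abundant loci. The widest was CP12-1, with 22631 and 27108 in protoplasts, against 23229 and 21605 in leaf; the lower protoplast library lay inside the leaf range. AT5G24165, of unknown function, had 4011 and 4768 in protoplasts and 4239 and 3808 in leaf. UBC28, a ubiquitin-conjugating enzyme, had 17037 and 14477 in protoplasts and 13971 and 14761 in leaf. In both genes the groups overlapped. In AT4G17390, a ribosomal protein of the L15 family, the values were 4100 and 4770 in protoplasts and 5016 and 4698 in leaf, and the groups overlapped.

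The bounds had near neighbours on both sides. Just inside the upper bound were CP12-1, MTP11 and ALPHA-SNAP2 with ratios of 0.1498, 0.148 and 0.147, and just outside it PATL1, SYD and CKA2 with 0.153, 0.154 and 0.155. At the lower bound HA2, SKU5 and WEB1 lay inside, at -0.1495, -0.149 and -0.148, and AT4G16190, RPS13A and AT1G70600 outside, at -0.151, -0.156 and -0.158. SAC9, AT1G54920 and AT5G65950 were the level loci just above the count floor, at 3028, 3035 and 3052, and ERMO2, PFK1 and GDC1 those just below it, at 2991, 2991 and 2980.

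The 245 genes were spread over the genome, with 74 on chromosome 1, 36 on chromosome 2, 48 on chromosome 3, 38 on chromosome 4 and 49 on chromosome 5, or 9.02% to 11.8% of the abundant loci of each. In the order of protein-coding genes of TAIR10.1, 2 pairs of them were direct neighbours, AT1G58807 with AT1G58848 and AT4G03020 with AT4G03030. By function 169 could be placed in 12 groups, which were drawn up after the members were known, and 76 stand outside these groups. Genes named below only for their function were picked after their values were seen.

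Photosynthesis and chloroplast functions held 22 of the genes. LHCB2.1, a chlorophyll-binding protein of the main antenna of photosystem II, had the most counts of all 245, with 131043 and 120056 scaled counts in protoplasts and 117449 and 123451 in leaf. PSBX, a small subunit of photosystem II, had 38900 and 39966 in protoplasts and 40767 and 38872 in leaf. For both genes protoplast and leaf libraries overlapped. PSAD-2, which docks ferredoxin to photosystem I, had 20486 and 21667 in protoplasts and 19897 and 20700 in leaf, again with overlap. PETE1, a plastocyanin that carries electrons to photosystem I, had 6639 and 6654 in protoplasts and 6106 and 6056 in leaf, where both protoplast libraries were the higher ones.

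Most other genes of these complexes were higher in protoplasts. Of 49 nuclear genes for photosystems and electron transport, all above the floor of 3000, 44 rose and 1 fell. The other 4, those just described, did not pass the test. The 49 had a median log2 fold change of 0.58, against -0.04 for all tested loci. The 2360 abundant loci had a median log2 ratio of 0.62, with 70.4% called higher and 20.8% lower. With library size as the only scaling, 5 of the 49 rose and 33 fell. LHCB4.3, a minor antenna protein, rose by 1.72 ± 0.06 (SE) on the log2 scale with TMM factors (edgeR quasi-likelihood test, adjusted p = 2.09e-11), and its log2 fold change was 0.91 with library size only. ATPD, the delta subunit of the chloroplast ATP synthase, was the gene that fell, with 19600 and 17390 in protoplasts and 20030 and 22681 in leaf (log2 fold change -0.23 ± 0.07 (SE), adjusted p = 0.00793), and this call was lost without leaf replicate 2 (log2 fold change -0.15) or protoplast replicate 2 (-0.15). LHCB2.2, the closest relative of LHCB2.1 by name, had 66885 and 62697 in protoplasts and 57238 and 58439 in leaf, a ratio of 0.16, just past the bound; reads that near-identical copies share may be split between the 2 genes.

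The remaining chloroplast genes cover control of the Calvin cycle, plastid transcription, transport and pigments. CP12-1 and CP12-2 make small proteins that hold phosphoribulokinase and glyceraldehyde-3-phosphate dehydrogenase in an inactive complex. CP12-2 had 14171 and 16105 in protoplasts and 14076 and 13497 in leaf, so both protoplast libraries exceeded the leaf ones. SIGE, a sigma factor that directs the plastid-encoded polymerase, had 18500 and 18463 in protoplasts and 19251 and 19183 in leaf, so both protoplast libraries were lower. PHT2;1, the phosphate transporter of the chloroplast envelope, had 15498 and 15059 in protoplasts and 16036 and 17672 in leaf, and the protoplast libraries were the lower ones. CH1, which makes chlorophyll b, LYC, a lycopene cyclase of carotenoid synthesis, and GGR, which takes part in prenyl diphosphate synthesis, had ratios of 0.11, 0.11 and -0.08. CDSP32, a thioredoxin-like protein of the chloroplast named for its induction by drought, had 7728 and 8612 in protoplasts and 8616 and 8635 in leaf, and the higher protoplast library came just under the leaf libraries.

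**Figure D2:**
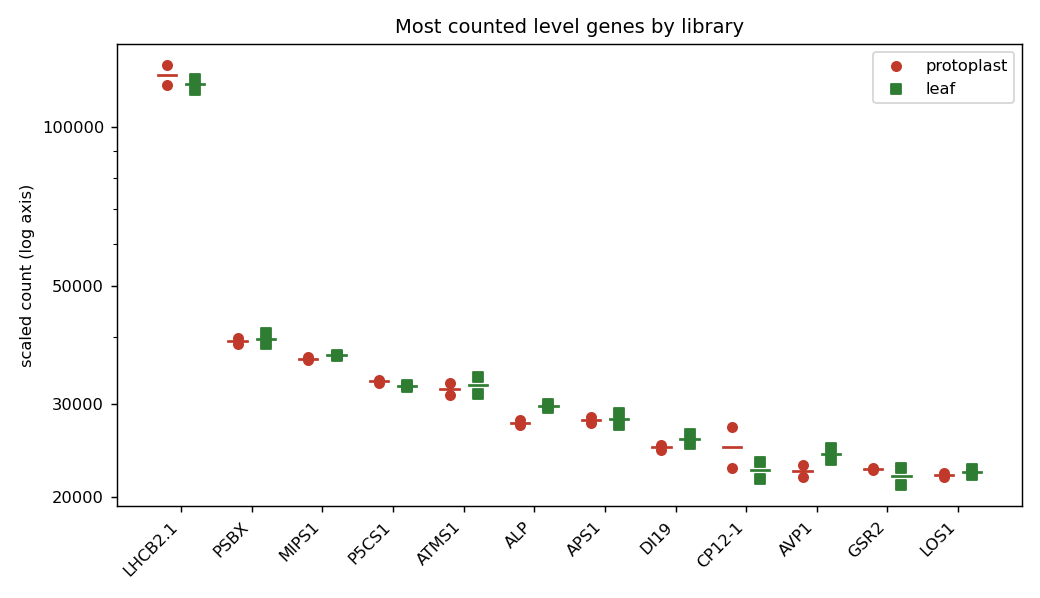
Scaled counts (log axis) of the 12 level genes with the most counts; circles are the 2 protoplast libraries, squares the 2 leaf libraries and bars their means. Protoplast and leaf bars lie close together for each gene, and the widest gap between replicates is that of CP12-1 in protoplasts.

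The path from sulfate to methionine and S-adenosylmethionine, the methyl donor of the cell, held 11 level genes when the methyltransferase HOL1 is counted with it. ATP sulfurylase, which activates sulfate, had 2 level genes: APS1, with 28254 and 27551 in protoplasts and 27361 and 28852 in leaf, and APS2, with 3593 and 3526 in protoplasts and 3567 and 3747 in leaf. Both overlapped between the groups. SIR, the sulfite reductase of the chloroplast, had 13459 and 13717 in protoplasts and 14699 and 14494 in leaf. SIR was lower in both protoplast libraries than in either leaf library. OASA1, which joins sulfide to O-acetylserine to give cysteine, had 8332 and 8973 in protoplasts and 8029 and 7657 in leaf, with the protoplast libraries higher. CBL, a cystathionine beta-lyase, had 4124 and 3820 in protoplasts and 3908 and 3812 in leaf, and its groups overlapped. APK, the kinase that turns activated sulfate into a donor for sulfation, had 3541 and 3720 in protoplasts and 3552 and 3330 in leaf and overlapped too.

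ATMS1, a methionine synthase, was the largest of the path by counts among the level genes, with 32752 and 31100 in protoplasts and 31334 and 33737 in leaf, and its groups overlapped. Its methyl donor is made with the help of MTHFR1, which had 4702 and 4275 in protoplasts and 4963 and 4977 in leaf. The S-adenosylmethionine synthetases SAM1 and SAM-2 end the path. SAM1 had 9490 and 9824 in protoplasts and 9320 and 9150 in leaf, and SAM-2 had 6136 and 6083 in protoplasts and 5705 and 5666 in leaf. MTHFR1 was lower and both synthetases were higher in each protoplast library than in each leaf library.

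Other genes of the same steps were not level. A list of 32 genes of this path, drawn up after values were seen, held 10 level genes. Of the 32, 8 rose, 14 fell and 10 did not pass the test, where 39.8% of all tested loci rose and 40.7% fell. MTHFR1 and SIR, both level by the rule, were among the 14 that fell. With library size only, 3 of the 32 had a positive log2 fold change and 29 a negative one. The list had a median log2 fold change of -0.05. APR3 and APR2, which both reduce activated sulfate, moved in opposite directions: APR3 rose by 1.76 ± 0.05 (SE) and APR2 fell, with a log2 fold change of -0.86 ± 0.06 (SE) (edgeR quasi-likelihood test, adjusted p = 4.57e-12 for APR3 and 3.25e-08 for APR2). MS2, a methionine synthase like ATMS1, fell to 516 and 507 in protoplasts, against 4510 and 4681 in leaf. AKN2, an adenosine phosphosulfate kinase like the level gene APK, fell to 234 and 204 in protoplasts, against 4414 and 4621 in leaf. SERAT1;1, a serine acetyltransferase of cysteine synthesis, rose to 6278 and 6362 in protoplasts, against 1253 and 1234 in leaf. APR3 and SERAT1;1 were also higher with library size only (log2 fold changes of 0.95 and 1.52).

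Among 27 level genes of amino acid, lipid, sugar and phenolic metabolism, MIPS1 had the most counts. It makes inositol phosphate from a glucose phosphate, and it had 36703 and 36208 in protoplasts and 36862 and 37106 in leaf. P5CS1, which makes the osmolyte proline and is known to respond to drought and salt, had 33290 and 32832 in protoplasts and 32571 and 32227 in leaf. The leaf libraries of MIPS1 and the protoplast libraries of P5CS1 were the higher ones, by small margins. The relative of P5CS1, P5CS2, had 21781 and 21224 in protoplasts and 15472 and 14992 in leaf, a log2 fold change of 0.48 ± 0.05 (SE) (adjusted p = 1.19e-06) that was -0.33 with library size only. MIPS2 fell to 5264 and 5166 in protoplasts, against 7240 and 7134 in leaf, and MIPS3 had 3.54 and 10.2 in protoplasts and 426 and 493 in leaf.

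GSR2, a cytosolic glutamine synthetase, had 22493 and 22682 in protoplasts and 21001 and 22681 in leaf, with overlap. GSR 1, another cytosolic form, rose to 2694 and 2646 in protoplasts, against 659 and 694 in leaf, and the chloroplast form GS2 rose to 103230 and 99664 in protoplasts, against 48181 and 48931 in leaf. GLN1.3 fell to 80.3 and 94.7 in protoplasts, against 459 and 452 in leaf. GSR 1 and GS2 were also higher in protoplasts with library size only, with log2 fold changes of 1.15 and 0.24. Fatty acid desaturases were represented by FAD2 of the endoplasmic reticulum, SSI2 of the chloroplast stroma and FAD3, with ratios of -0.09, 0.11 and 0.06. ACC1, the cytosolic acetyl-CoA carboxylase, had a ratio of -0.10 and was lower in both protoplast libraries. The phenylpropanoid genes SNG1, CCR1, HCT and CCoAOMT1 act in making sinapate esters and lignin precursors. Their ratios were 0.01, -0.03, -0.05 and -0.01.

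The vacuole and endomembrane traffic supplied 18 genes. ALP, an aleurain-like protease of the vacuole, had 27890 and 27302 in protoplasts and 29890 and 29466 in leaf. AVP1, the proton-pumping pyrophosphatase of the vacuole, had 21793 and 22928 in protoplasts and 24767 and 23495 in leaf. Both genes were lower in each protoplast library than in each leaf library. ARFA1E, a small GTPase that builds coats on Golgi vesicles, had 21142 and 21519 in protoplasts and 21687 and 21237 in leaf and overlapped. Its relative ARF1 rose to 11291 and 10932 in protoplasts, against 4522 and 4140 in leaf, and was higher with library size only as well (0.53). ARFA1F of the same family fell to 752 and 760.3 in protoplasts, against 1035 and 1057 in leaf. The coatomer gamma subunit AT4G34450 had one of the ratios closest to 0, with 5594 and 5526 in protoplasts and 5601 and 5529 in leaf.

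Of 27 tested subunits of the vacuolar proton ATPase, which acidifies the vacuole, 9 rose, 11 fell and 7 did not pass the test. Over all tested loci 39.8% rose and 40.7% fell. The 27 had a median of 0.05, and with library size only 0 rose and 26 fell. The 4 level genes belong to the peripheral part that splits ATP. VHA-A, the catalytic subunit, had 12878 and 12901 in protoplasts and 11706 and 11993 in leaf. Of the genes for the B subunit, VAB1 had 7639 and 7406 in protoplasts and 6956 and 7037 in leaf, and VAB2 had 3798 and 3790 in protoplasts and 3584 and 3652 in leaf. DET3, the C subunit, had 3535 and 3395 in protoplasts and 3255 and 3125 in leaf. All 4 were higher in both protoplast libraries, by ratios of 0.07 to 0.12. VHA-E3, an E subunit, had the largest rise of the list, with 239 and 274 in protoplasts, against 122 and 151 in leaf; its log2 fold change of 0.88 ± 0.15 (SE) was 0.07 with library size only and no longer passed the test. The membrane subunit VHA-A3 of the tonoplast had 10954 and 10410 in protoplasts and 8040 and 8316 in leaf, a log2 fold change of 0.36 ± 0.05 (SE) that was -0.44 with library size only. VHA-A1, its counterpart of the trans-Golgi network, fell to 553 and 479 in protoplasts, against 925 and 966 in leaf. VATG3, a G subunit, had 0 counts in protoplasts and 21.6 and 18.7 scaled counts in leaf.

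Translation supplied 19 genes. LOS1, the elongation factor that moves the ribosome along the transcript, had 21802 and 22161 in protoplasts and 22560 and 21982 in leaf. AT5G60390, one of 4 near-identical genes for elongation factor 1-alpha, had 19071 and 19181 in protoplasts and 20188 and 20107 in leaf, with lower values in both protoplast libraries, while the other 3 fell, with log2 fold changes of -0.35, -0.33 and -0.30. Reads shared by these copies may have been assigned to any of them. EIF4A1, the helicase of translation initiation, had 13530 and 12771 in protoplasts and 11790 and 12128 in leaf, and both protoplast libraries were higher. EIF4G, the scaffold it binds, had 4757 and 4703 in protoplasts and 4463 and 4829 in leaf, with overlap. The elongation factor 1B subunit eEF-1Bb1 had 10843 and 10633 in protoplasts and 10286 and 9970 in leaf, with both protoplast libraries higher. AT5G19510, of the same factor, had 9342 and 9079 in protoplasts and 8861 and 9400 in leaf, with overlap. Of 36 translation factors 14 rose, 11 fell and 11 did not pass, where 39.8% of all tested loci rose and 40.7% fell. The 36 had a median of 0.01 and held 6 level genes, and with library size only 1 rose and 35 fell. ELF5A-3 rose by 1.18 ± 0.06 (SE) and AT5G12110, an elongation factor 1B subunit, fell, with a log2 fold change of -2.23 ± 0.14 (SE).

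Most listed ribosomal proteins of the cytosol fell. Of 27 listed, 3 rose, 20 fell and 4 did not pass the test, where 39.8% of all tested loci rose and 40.7% fell. The 27 had a median of -0.25, and with library size only 1 rose and 24 fell. The 5 level genes were ATL5, AT3G09630, AT5G02870, SAC52 and RPL18. ATL5, the L5 protein, had 6241 and 6337 in protoplasts and 6140 and 6261 in leaf, with overlap. SAC52, an L10 protein, had 5298 and 5664 in protoplasts and 6281 and 5682 in leaf, with both protoplast libraries lower. SAG24, another gene of the L10 family, rose to 47251 and 49592 in protoplasts, against 1447 and 1396 in leaf (log2 fold change 5.07 ± 0.06 (SE), adjusted p = 1e-15, and 4.26 with library size only). AT3G11250, a gene of the acidic stalk protein P0, fell to 223 and 204 in protoplasts, against 527 and 489 in leaf. RPL18, the L18 protein, had 4070 and 4173 in protoplasts and 4533 and 4409 in leaf, with both protoplast libraries lower. AT3G09630 and AT5G02870 both encode the L4 protein. AT3G09630 had 5463 and 5689 in protoplasts and 5699 and 5707 in leaf, and AT5G02870 had 5362 and 5645 in protoplasts and 5526 and 5364 in leaf.

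**Figure D3:**
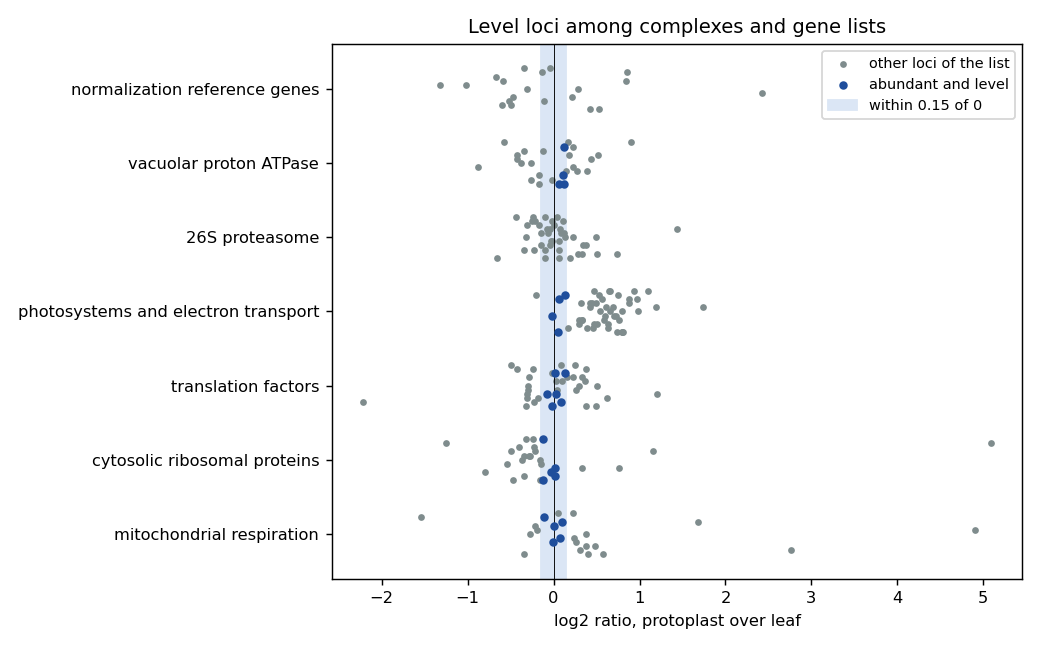
Log2 ratio of mean scaled counts, protoplast over leaf, for tested loci of 7 gene lists with counts in both groups; each point is a gene, blue points are level genes and the band marks ratios within 0.15 of 0. Level genes are 4 of 49 among photosystem genes and 0 of 42 among proteasome genes, where 22 lie in the band and 2 reach the count floor.

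Mitochondria and respiration held 10 level genes. CI51, a flavoprotein subunit of complex I, had 6899 and 7246 in protoplasts and 6868 and 6592 in leaf. EMB1467, another subunit of complex I, had 4101 and 3963 in protoplasts and 4210 and 4529 in leaf. The groups did not overlap for either gene, with CI51 higher and EMB1467 lower in protoplasts. AT5G08690, a beta subunit of the mitochondrial ATP synthase, had 6625 and 6656 in protoplasts and 6379 and 6955 in leaf; its near-identical copies AT5G08670 and AT5G08680 fell, with log2 fold changes of -0.36 and -0.23. AT5G47030, another subunit of that synthase, had 6002 and 5744 in protoplasts and 5356 and 5622 in leaf, with both protoplast libraries higher. mMDH1, a malate dehydrogenase, had 6788 and 6397 in protoplasts and 6268 and 6821 in leaf, whereas mMDH2 fell to 165 and 202 in protoplasts, against 512 and 563 in leaf. Of 23 respiratory genes listed, 12 rose, 6 fell and 5 did not pass, where 39.8% of all tested loci rose and 40.7% fell. The 23 had a median of 0.20 and held 5 level genes, and with library size only 3 rose and 20 fell. AAC2, an ADP/ATP carrier of the inner membrane, rose to 3141 and 3328 in protoplasts, against 97.9 and 119 in leaf (log2 fold change 4.88 ± 0.09 (SE), and 4.07 with library size only).

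The ubiquitin system held 8 level genes, among them UBC8, UBC10 and UBC28, which hand ubiquitin to target proteins and have closely similar sequences. UBC10 had 14733 and 13626 in protoplasts and 12904 and 13159 in leaf, and UBC8 had 12250 and 10799 in protoplasts and 12403 and 12718 in leaf. UBC10 was higher and UBC8 lower in each protoplast library than in each leaf library. UBC9, of the same group, had 5799 and 4955 in protoplasts and 2950 and 3050 in leaf, a log2 fold change of 0.82 ± 0.07 (SE) that was 0.02 with library size only. UBC29 fell to 4.72 and 13.1 in protoplasts, against 789 and 825 in leaf. None of 42 genes of the 26S proteasome, which degrades ubiquitin-marked proteins, was among the level genes: 22 had ratios within 0.15 of 0, but only 2 of the 42 reached the floor of 3000. Of the 42, 10 rose, 12 fell and 20 did not pass the test, where 39.8% of all tested loci rose and 40.7% fell. The 42 had a median of -0.04, and 1 rose and 40 fell with library size only. The number that fell was 7 without leaf replicate 1 and 6 with DESeq2. PBC2, a core subunit, rose to 1230 and 1231 in protoplasts, against 459 and 448 in leaf, and RPT5B, an ATPase of the regulatory particle, fell to 458 and 405 in protoplasts, against 666 and 695 in leaf.

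Immune receptors with nucleotide-binding and leucine-rich repeat domains made up most of a group of 11 level genes, which also held ACD6, an ankyrin protein that promotes salicylic acid signalling. RPP8, named for the recognition of downy mildew, had 5893 and 5938 in protoplasts and 5450 and 5415 in leaf. RPP1 had 5337 and 4961 in protoplasts and 5126 and 5325 in leaf, and RPP5 had 5005 and 5009 in protoplasts and 4407 and 4643 in leaf. RPP1 overlapped between the groups, and RPP8 and RPP5 were higher in both protoplast libraries. ACD6 had 6990 and 6605 in protoplasts and 6746 and 7053 in leaf and overlapped. The receptors AT1G59124 and AT1G58807 had raw counts within 0.118% of each other in every library, for example 10175 and 10163 in protoplast replicate 1, and AT1G58848 and AT1G59218 within 0.879%. Each pair may hold reads of the same sequences counted at both loci, and the 2 loci of a pair are not independent members.

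Light and hormone signalling contributed 9 genes. PHYB, a receptor of red light, had 4010 and 3884 in protoplasts and 3736 and 3934 in leaf, and the groups overlapped. PHYA fell to 3887 and 3858 in protoplasts, against 5056 and 5199 in leaf, and PHYD had 734 and 645 in protoplasts and 537 and 516 in leaf, a log2 fold change of 0.37 ± 0.09 (SE) that was -0.43 with library size only. PHOT1, a receptor of blue light, had 8939 and 8717 in protoplasts and 9319 and 10014 in leaf, with lower values in both protoplast libraries. CIP1, a protein that binds the photomorphogenesis repressor COP1, had 16934 and 18530 in protoplasts and 17464 and 18103 in leaf, a ratio of -0.0042. BRI1, the brassinosteroid receptor, its transcription factor BES1 and the cytokinin receptor HK3 had ratios of -0.10, -0.08 and -0.15. DI19, a zinc finger protein named for its induction by drought, stands outside these groups, with 25045 and 24533 in protoplasts and 26271 and 25135 in leaf, where both leaf libraries were the higher ones.

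The cytoskeleton and cell wall held 10 level genes and membrane transport 8. TUB4 had 10204 and 10344 in protoplasts and 10054 and 10122 in leaf, a narrow range in which the protoplast libraries were the higher ones. Of the other beta-tubulins, TUB2 fell to 2606 and 2537 in protoplasts, against 3825 and 3978 in leaf (reads it shares with the near-identical TUB3 may be split), and TUB7 had 2465 and 2343 in protoplasts and 1489 and 1636 in leaf, a log2 fold change of 0.60 ± 0.06 (SE) that was -0.20 with library size only. WLIM2b, which bundles actin, had 7066 and 6582 in protoplasts and 6756 and 6879 in leaf, with overlap. HA2, a proton pump of the plasma membrane, had 5738 and 5660 in protoplasts and 6259 and 6383 in leaf, with lower values in both protoplast libraries. Its relative HA1 fell to 19268 and 19753 in protoplasts, against 31595 and 31287 in leaf, and HA3 fell to 129.9 and 178 in protoplasts, against 8974 and 9555 in leaf. Of 10 tested genes of this family, HA2 included, 4 rose and 6 fell, where 39.8% of all tested loci rose and 40.7% fell. HA11 rose to 13314 and 13093 in protoplasts, against 10967 and 10831 in leaf, a log2 fold change of 0.26 ± 0.05 (SE) that was -0.55 with library size only. The other 3 that rose were HA7, HA9 and AHA10, which were also higher with library size only; HA9 had 979 and 861 in protoplasts and 2.31 and 0.746 in leaf. PIP1;4, a water channel, and AT3G30390, of an amino acid transporter family, were close to 0, with ratios of 0.0033 and -0.0011. RNA processing and chromatin held 16 genes; MBD10, a methyl-CpG-binding domain protein, had 5849 and 6759 in protoplasts and 6304 and 6292 in leaf with overlap, and the histone deacetylase HD1 had 3659 and 3596 in protoplasts and 3411 and 3430 in leaf.

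The families of some level genes were set out after values were seen. In 14 families that hold 18 level genes, 54 other genes were tested; 28 rose and 25 fell, and 14 of the 54 changed at least 2-fold. The median absolute log2 fold change of the 54 was 0.51. Of the 28 that rose, 21 had a negative log2 fold change with library size only. Among the 54, 19 reached the mean count of 3000 that the level genes had to reach. A gene whose ratio lay outside the bounds could not be a level gene, although a level gene could still be called by the test. Of all tested loci 80.5% were called, so these counts describe the families and nothing is read from them.

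**Figure D4:**
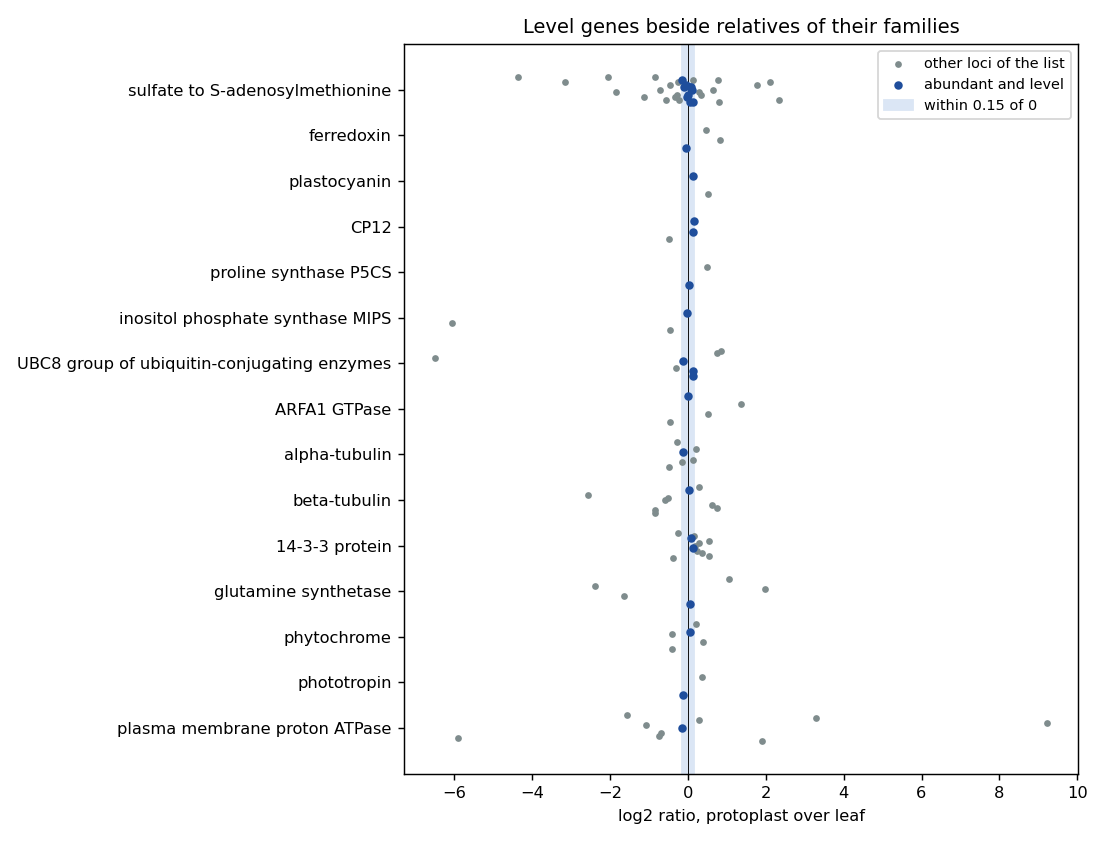
Log2 ratio of mean scaled counts, protoplast over leaf, for the sulfate path and 14 families with level genes (blue); grey points are other tested genes of the same list with counts in both groups and the band marks ratios within 0.15 of 0. Of the 54 other tested genes of the 14 families, 28 rose and 25 fell, and 14 of the 54 changed at least 2-fold.

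None of the 20 listed genes, commonly used to normalize plant expression data, was among the 245. The list left out level genes of the same kinds. Among these were TUB4, UBC10 and the elongation factor 1-alpha gene AT5G60390, with ratios of 0.03, 0.12 and -0.08. In protoplasts 7 of the 20 rose, 10 fell and 3 did not pass the test, with a median log2 fold change of -0.24. With library size only 1 rose and 17 fell. The test called 80.5% of all tested loci, and 10.4% of the abundant loci were level. Nothing about reference genes as a class is read from these counts. UBQ10, a polyubiquitin gene, rose to 267787 and 261395 in protoplasts, against 48757 and 49412 in leaf (log2 fold change 2.41 ± 0.05 (SE), adjusted p = 1.04e-13, and 1.60 with library size only). The actins moved apart: ACT2 had 44868 and 45190 in protoplasts and 36810 and 36863 in leaf, a log2 fold change of 0.27 ± 0.05 (SE) that was -0.54 by library size alone and -0.059 by upper-quartile scaling, while ACT7 fell to 3568 and 3760 in protoplasts, against 7408 and 7494 in leaf, and ACT8 fell to 9465 and 9513 in protoplasts, against 11925 and 12075 in leaf. GAPC1 and GAPC2, the cytosolic glyceraldehyde-3-phosphate dehydrogenases, had log2 fold changes of 0.83 ± 0.05 (SE) and -0.61 ± 0.05 (SE), and that of GAPC1 was 0.03 with library size only.

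The other classical genes were spread in the same way. The cyclophilin ROC3 fell to 1102 and 1070 in protoplasts, against 2736 and 2710 in leaf. PP2AA3, a phosphatase subunit, and AT4G26410 had log2 fold changes of 0.40 ± 0.06 (SE) and 0.51 ± 0.06 (SE), which turned to -0.41 and -0.30 by library size alone; with upper-quartile scaling PP2AA3 was at 0.071 and did not pass. AT4G34270 had 0.20 ± 0.08 (SE), which was -0.61 by library size alone and -0.13 by upper-quartile scaling. Its call was lost with DESeq2, without the filter, without leaf replicate 2 (0.12) and without protoplast replicate 2 (0.11), which leaves 6 genes that rose. CBP20, a cap-binding protein among the genes that fell, lost its call with DESeq2 (-0.31), without leaf replicate 1 (-0.17) and without protoplast replicate 1 (-0.30), against -0.33 with all libraries. The 3 genes that did not pass were YLS8, AT2G28390 and PEX4 (also called UBC21), and their ratios, -0.04, -0.11 and -0.13, were within 0.15 of 0. YLS8, a splicing factor, had 2778 and 2722 in protoplasts and 2903 and 2738 in leaf, below the floor of 3000 and with overlap. AT2G28390 had 982 and 969 in protoplasts and 989.9 and 1110 in leaf, so both protoplast libraries were lower. PEX4 had 523 and 431 in protoplasts and 506 and 541 in leaf, with overlap. Both passed the test as lower when a single library was left out, AT2G28390 without leaf replicate 1 (log2 fold change -0.22, against -0.13 with all libraries) and PEX4 without protoplast replicate 1 (-0.31, against -0.15). YLS8, AT2G28390 and PEX4 all passed as lower by library size alone and by upper-quartile scaling. Of the 20, 9 reached the floor, and all of these were called, UBQ10, ACT2, ACT7, ACT8, GAPC1 and GAPC2 among them. The test called 91.2% of all 2360 abundant loci.

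**Figure D5:**
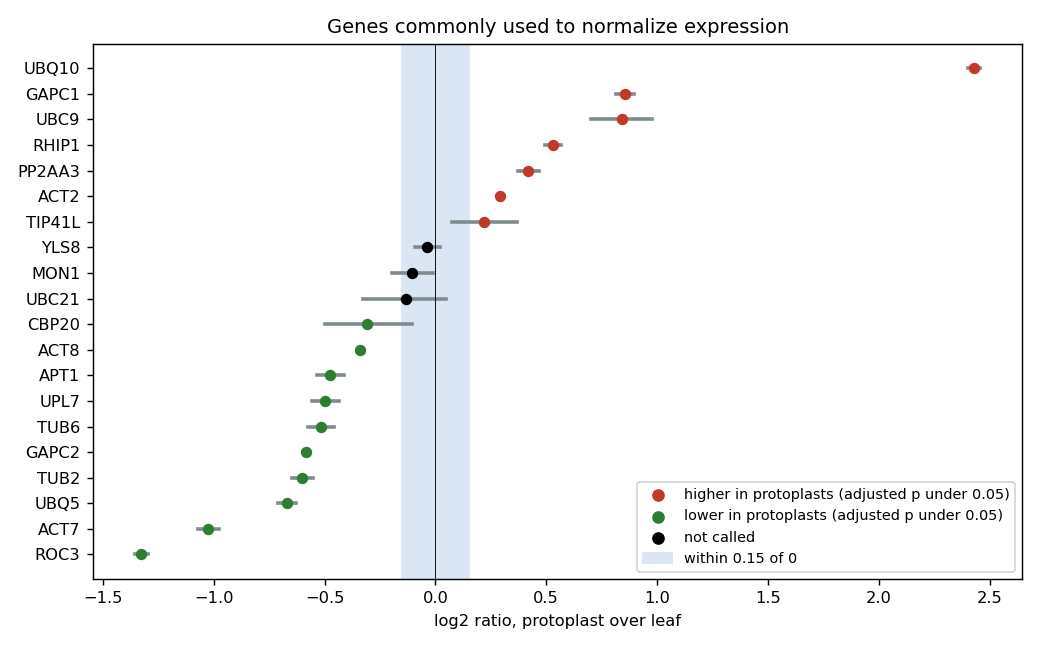
Log2 ratio of mean scaled counts, protoplast over leaf (points), for 20 genes commonly used to normalize expression, with lines from the lowest to the highest of the 4 library pairs; red, green and black mark higher, lower and not called in the edgeR test. The ratios run from -1.33 for ROC3 to 2.43 for UBQ10, and only the 3 genes in black lie in the band within 0.15 of 0; UBC21 is PEX4, MON1 is AT2G28390, TIP41L is AT4G34270 and RHIP1 is AT4G26410.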

How the data were processed

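Poly(A) RNA of 2 protoplast and 2 leaf libraries was sequenced from a directional kit. The authors' deposited counts are whole numbers per locus, 1 column a library, not normalized. The submitters' processing notes name STAR and DESeq, with no version. Genome build, annotation, counter and whether reads were counted by strand were not given in the sources used here, so counts of overlapping, antisense and near-identical genes are uncertain, and no coordinates or sequences are printed. Each locus has a summed count of at least 2. Per the file headers, the authors' deposited comparison holds a mean normalized count (a signal), a log2 fold change with its SE, a test statistic (a score), a p-value and an adjusted p-value. Only that adjusted p-value was used here. Columns of other samples numbered 0.

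Median-of-ratios size factors were computed from all loci in Python 3.11.15, and counts divided by them are called scaled counts. Differences were tested over the whole table with edgeR 4.0.16 in R 4.3.3, by the quasi-likelihood F test on TMM-scaled libraries, with no covariate and with filterByExpr, which kept 20200 loci and set 4704 aside. Adjusted p-values are Benjamini and Hochberg's over all loci tested, with a threshold of 0.05. Log2 fold changes are protoplast over leaf. The common biological coefficient of variation was 0.0486 with 2 residual degrees of freedom, and library totals ran from 39958035 to 48503141 counts. On simulated counts of 19992 genes the test recovered 100% of the genes changed by 1 or 2 on the log2 scale, and 2.91% of its calls were false. There 100 genes changed by 1 and 100 by 2, as many up as down. In the data 80.5% of tested loci were called, so the simulation does not measure the false calls here. It held no changes as small as those of the level genes.

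The members and lists were chosen with earlier results of these data known. They are 7 lists (reference genes, vacuolar ATPase, proteasome, photosystems, translation factors, ribosomal proteins, respiration) and 5 marker lists; the sulfate path, the 14 families and the 12 functional groups were drawn up after values were seen. Named by rule were the 12 level genes with the highest mean, the 6 with ratios closest to 0, the 3 on each side of each bound, the 4 with the widest replicate differences, copies of a level gene, the reference genes, and of each list the level genes and the called genes with the largest rise and fall. Not every gene of this rule is printed. Other genes were named for their function after their values were seen. Names come from the gene table of TAIR10.1. Alternatives were other scalings, other bounds, no filter, DESeq2 1.42.0, a replicate block and leaving out each library.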

Additional observations from a re-analysis of the deposited data

How the results depend on the processing

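Which genes counted as level depended most on the scaling. TMM-scaled library sizes chose 255 genes, 210 of them among the 245, upper-quartile-scaled sizes chose 279 with 35 shared, and unscaled library sizes chose 288 with 0 shared. A bound of 0.10 chose 161, one of 0.20 chose 321, a floor of 1000 chose 895 and a floor of 10000 chose 38. Leaving out a library chose 222 to 293, with 194 to 216 shared. Of the 245, 10 were called higher and 32 lower. The counts were 43 higher and 9 lower with RLE factors, 6 higher and 2 lower with DESeq2, 0 higher and 48 lower without the filter, and 0 higher and 245 lower both by library size alone and by upper-quartile factors. Leaving out a library gave 1 to 5 higher and 16 to 32 lower. With the replicate number as a block, 0 were called higher and 10 lower, at 1 residual degree of freedom; deviations of libraries with the same number had r = -0.0793 over 20200 genes, so the numbers were not taken to pair the libraries. The block also ended the call of AT4G34270 (0.20). Over the 7 lists 99 genes were called higher and 71 lower, against 12 higher and 195 lower by library size alone and 53 higher and 133 lower by upper-quartile factors. By library size alone ACT2 (-0.54), PP2AA3 (-0.41), AT4G34270 (-0.61) and AT4G26410 (-0.30) turned to lower. By upper-quartile factors ACT2 (-0.059) and AT4G34270 (-0.13) changed sign, but neither passed the test. Relative to TMM, log2 fold changes shifted by a median of -0.80 by library size alone and -0.33 by upper-quartile factors. Of all calls, 49.4% were higher with TMM, 51.2% with RLE, 35.9% with upper-quartile factors and 23.5% by library size alone. The cause of the changes with DESeq2, the block and the filter was not tested. At 2 libraries a group, a gene that did not pass the test is not shown to be equal in protoplasts and leaf.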
